A study of Mus musculus with 12 samples.

Results

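Messenger RNA of 37 peroxisomal genes was followed in 12 mouse kidney libraries, out of 55487 gene identifiers in the count table. The list was set by gene name and function, with earlier results of these data known, and all 37 genes were found in the table. They comprised 12 peroxins, which build the organelle, 22 enzymes and transporters of peroxisomal oxidation, and 3 enzymes of ether lipid synthesis. The samples were labelled as kidney cortex of mice with or without ALR (gene symbol Gfer), a mitochondrial sulfhydryl oxidase, and each of 4 groups had 3 libraries. Ctrl kidneys came from mice with floxed ALR alleles and no Cre (WT in the labels) after a sham operation. PT-KO kidneys came from sham-operated mice that carried the same floxed alleles together with Ggt1-Cre. This Cre acts in the proximal tubule, and the other cells of the kidney were not targeted. The labels name this genotype an ALR knockdown. Ctrl+I/R and PT-KO+I/R kidneys were of the same genotypes after bilateral ischemia-reperfusion (I/R), with 22 min of ischemia and 24 h of reperfusion. All mice were young adults on a mixed C57BL/6 background.

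Peroxisomes take up folded proteins from the cytosol and shorten fatty acids that mitochondria handle poorly, such as very long chain, branched and dicarboxylic acids. Proteins of the membrane are inserted by Pex3, Pex16 and Pex19, while proteins of the matrix are bound by the receptors Pex5 and Pex7, docked at Pex13 and Pex14, and the receptors are then recycled by the ring finger proteins Pex2 and Pex10 and by the ATPase complex of Pex6 with its anchor Pex26. The cells of the proximal tubule are rich in peroxisomes, and genes of straight-chain peroxisomal β-oxidation are classical targets of the nuclear receptor PPARα in rodents.

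Library totals ran from 12165089 to 23123693 counts, and 34 of the 37 genes had over 100 counts in every library, so the spread between libraries rather than counting limited the precision for those. Abcd2, Hacl1 and Pex10 had a library under that, at 2, 16 and 54 counts. The counts of Gfer were not lower in PT-KO, at 12.7, 11.4 and 14.4 CPM in Ctrl and 9.97, 17.1 and 15.03 in PT-KO (log2 fold change 0.13, SE 0.20, edgeR adjusted p = 0.761). After I/R it was at 15.3, 20.00 and 17.6 CPM in Ctrl+I/R and 21.6, 22.8 and 21.6 in PT-KO+I/R, so that every library labelled as knockdown was above every injured control (0.32, SE 0.13, edgeR adjusted p = 0.0723), against the label, although the difference did not pass. A count per gene cannot show whether exons were deleted in 1 cell type, and the groups are named by their labels. Ctrl libraries 1 and 2 carried Xist and no Y-linked transcripts, whereas the other 10 libraries carried Y-linked transcripts, so every comparison with Ctrl also mixes the sexes. PT-KO+I/R was therefore compared first with PT-KO and with Ctrl+I/R, where all libraries carried Y-linked transcripts. The 10 proximal tubule markers, summed, were at 14660 to 15590 CPM in Ctrl, 14300 to 16290 in PT-KO, 4458 to 9962 in Ctrl+I/R and 2856 to 3473 in PT-KO+I/R, and 0 of them was at 0 in all libraries. The 5 injured tubule markers, summed, were at 12.6 to 23.6, 8.89 to 12.6, 571 to 2669 and 4850 to 6364 CPM in the same order. Between the injured genotypes 4 of these were higher in PT-KO+I/R and 1 lower. The lower one was Vcam1, at 15.3 to 34.6 CPM in Ctrl+I/R and 9.16 to 11.99 in PT-KO+I/R. In whole tissue, fewer cells of a type and less RNA per cell cannot be told apart.

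The 250 bases before the transcription start are shown for the 2 enzymes and 1 peroxin that rose most and the 2 enzymes and 1 peroxin that fell most in PT-KO+I/R versus Ctrl+I/R, among genes in the promoter table, so that both kinds can be read side by side. The sequences are from RefSeq on GRCm38.p6 and are written 5′ to 3′ on the strand of the gene. Capitals mark a GC box (GGGCGG) or a CCAAT box (CCAAT) on either strand. Such a match is a description of the letters and not of binding. Amacr, the second largest fall, had no entry in the promoter table. The genes that rose were Ehhadh (chr16:21787835-21788084 on the minus strand), Acaa1b (chr9:119157094-119157343 on the minus strand) and Pex11a (chr7:79743132-79743381 on the minus strand).
Ehhadh: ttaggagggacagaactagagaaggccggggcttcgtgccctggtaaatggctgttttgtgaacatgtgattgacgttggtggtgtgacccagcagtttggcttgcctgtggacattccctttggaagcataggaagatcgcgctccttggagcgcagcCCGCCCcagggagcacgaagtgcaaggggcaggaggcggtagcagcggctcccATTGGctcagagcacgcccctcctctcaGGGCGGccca
Acaa1b: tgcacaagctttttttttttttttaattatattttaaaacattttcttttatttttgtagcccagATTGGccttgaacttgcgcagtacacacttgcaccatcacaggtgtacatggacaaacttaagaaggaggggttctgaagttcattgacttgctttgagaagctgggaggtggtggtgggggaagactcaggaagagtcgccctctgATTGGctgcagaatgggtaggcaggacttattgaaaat
Pex11a: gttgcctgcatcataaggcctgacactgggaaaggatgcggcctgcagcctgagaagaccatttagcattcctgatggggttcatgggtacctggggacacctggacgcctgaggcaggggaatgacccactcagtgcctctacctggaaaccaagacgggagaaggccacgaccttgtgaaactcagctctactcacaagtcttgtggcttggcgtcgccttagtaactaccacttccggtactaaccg

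The genes that fell were Hao2 (chr3:98893231-98893480 on the minus strand), Dao (chr5:114003485-114003734 on the plus strand) and Pex10 (chr4:155066780-155067029 on the plus strand).
Hao2: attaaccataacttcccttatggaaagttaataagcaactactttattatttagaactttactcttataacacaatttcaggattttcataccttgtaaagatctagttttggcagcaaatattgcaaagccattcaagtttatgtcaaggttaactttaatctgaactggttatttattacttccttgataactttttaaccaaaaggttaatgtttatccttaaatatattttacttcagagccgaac
Dao: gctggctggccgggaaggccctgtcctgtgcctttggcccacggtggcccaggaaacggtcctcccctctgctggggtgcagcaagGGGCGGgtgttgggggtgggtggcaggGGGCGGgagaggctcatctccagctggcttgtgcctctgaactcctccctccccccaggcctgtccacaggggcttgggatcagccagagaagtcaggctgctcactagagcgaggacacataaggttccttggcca
Pex10: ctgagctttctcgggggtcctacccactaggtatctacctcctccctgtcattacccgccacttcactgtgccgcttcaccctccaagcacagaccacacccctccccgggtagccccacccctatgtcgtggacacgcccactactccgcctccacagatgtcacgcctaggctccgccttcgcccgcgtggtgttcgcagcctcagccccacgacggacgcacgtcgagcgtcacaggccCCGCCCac

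Among the 3 genes that rose, Ehhadh held 2 GC boxes and 1 CCAAT box, Acaa1b held 2 CCAAT boxes, and Pex11a held 0 of either. Among those that fell, Dao held 2 GC boxes, Pex10 held 1 and Hao2 held 0 of either. The promoter table held 32 of the 37 genes. A GC box was present in 21 of these (65.6%), against 32.7% of 32851 promoter windows of the same length, and a CCAAT box in 11 (34.4%), against 33.8%. Each of the 32 genes has 1 window, the one nearest its annotated start. The 32851 windows were not chosen in this way, so the 2 sets are not matched. A direct repeat of the nuclear receptor half-site with 1 base between (AGGTCANAGGTCA) was present in 0 of 32 and in 0.0335% of all windows. With 1 open base in each half-site (AGGNCANAGGNCA, which includes the former), it was present in 0 of 32 and in 0.338% of all windows. All motifs were searched on both strands, and no marked matches overlap in the sequences shown.

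Levels between genes were compared as CPM per kb of the principal transcript, where CPM is counts scaled to library size and composition (TMM). In Ctrl the highest level was that of Slc27a2, a very long chain acyl-CoA synthetase, at 1118 ± 138 CPM per kb (mean ± SD of 3 libraries). Hao2 (351 ± 171), Phyh (301 ± 79.6), Ech1 (285 ± 58.9), Scp2 (283 ± 41.1) and Ehhadh (266 ± 59.1) followed and were not separated beyond their spread. The 12 peroxins were all far below these, from 6.45 ± 0.387 CPM per kb for Pex26 to 63.8 ± 5.50 for Pex19. Abcd2, a transporter of very long chain acyl-CoA, was lowest at 0.110 ± 0.0727. Among injured PT-KO kidneys the order at the top had changed, with Ehhadh at 901 ± 50.6 CPM per kb, Slc27a2 at 801 ± 50.8 and Hao2 at 6.30 ± 1.72.

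Injured PT-KO kidneys had more mRNA of the transporter Abcd3 and of the oxidation enzymes Ehhadh, Acaa1b, Eci2 and Hsd17b4, and less of Amacr, Acox2, Scp2, Hao2, Dao, Pipox and the 3 ether lipid enzymes, than either injured controls or uninjured PT-KO kidneys. Against PT-KO, 30 of the 36 genes tested passed an adjusted p under 0.05 (8 higher, 22 lower), where 65.5% of all 15155 genes tested passed, 32.9% higher and 32.7% lower. Against Ctrl+I/R, 22 of 36 passed (10 higher, 12 lower), where 46.9% of 15281 genes passed, 22.5% higher and 24.4% lower. For 30 of 36 genes no library overlapped between PT-KO+I/R and PT-KO (71% of all genes tested), and for 25 of 36 none did between the injured genotypes (58.8%). The median log2 fold change was -0.61 against PT-KO and 0.02 against Ctrl+I/R, beside 0.01 and -0.0049 over all genes tested. Abcd2 had too few counts to be tested in these comparisons. With library totals in place of TMM scaling, which moved the median of all genes to -0.21 against Ctrl+I/R, 8 genes were higher and 15 lower there. The 10 proximal tubule markers all fell against PT-KO and 6 of 10 fell against Ctrl+I/R. Other summed markers also differed between PT-KO and PT-KO+I/R without overlap. Thick ascending limb and distal tubule markers were at 5764 to 6649 and 2235 to 2690 CPM, and collecting duct markers at 331 to 425 and 136.9 to 202.5. Hepatocyte markers were at 1247 to 2407 and 533 to 785, macrophage markers at 84.8 to 87.7 and 54.6 to 61.6, and neutrophil markers at 0.92 to 2.71 and 54.5 to 82.6. Of these lists, 1 hepatocyte and 1 macrophage marker passed as higher. Macrophage markers (6, summed) were at 117 to 219 CPM in Ctrl+I/R and 54.6 to 61.6 in PT-KO+I/R. Of the 6, 5 were lower and Cd68 was higher (14.2 to 17.95 and 20.1 to 29.98). Neutrophil markers (5, summed) were at 9.49 to 41.4 CPM in Ctrl+I/R and 54.5 to 82.6 in PT-KO+I/R. Neither sum overlapped. Of the 5 neutrophil markers 3 passed, all higher. Csf3r (2.91 to 11.5 and 4.36 to 6.59) and Cxcr2 (0.63 to 3.76 and 3.59 to 6.51) overlapped. The part of these in the changes below was not tested.

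**Figure D1:**
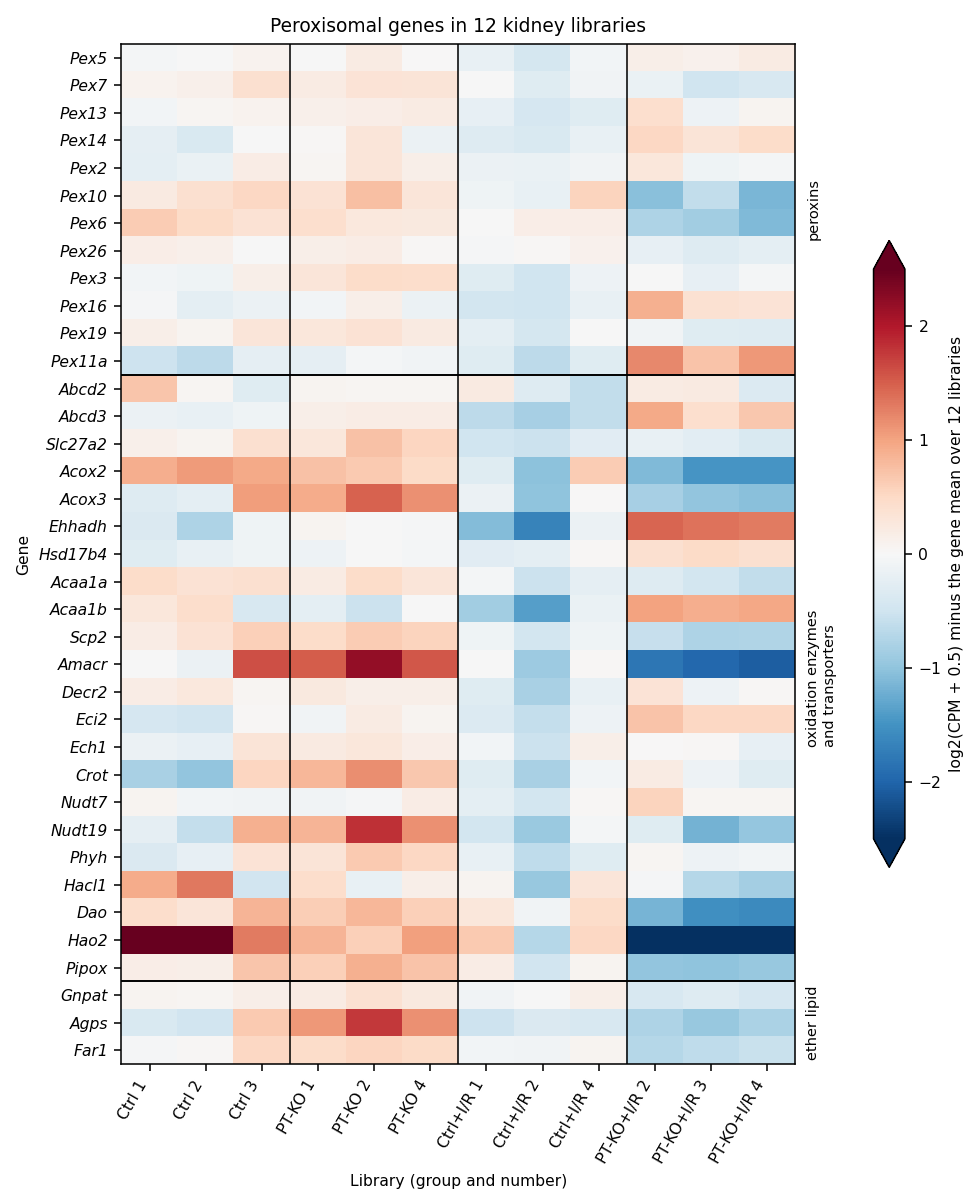
Heat map of the 37 genes (rows, by class) in the 12 libraries (columns), coloured by log2(CPM + 0.5) minus the mean of the gene. Ehhadh, Acaa1b, Abcd3 and Pex11a are red and Hao2, Amacr, Dao and Acox2 blue in the 3 PT-KO+I/R libraries, and Ctrl library 3 differs from Ctrl libraries 1 and 2 for Amacr, Acox3, Crot, Nudt19 and Agps.

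Abcd3, the half-transporter that carries acyl-CoA into the peroxisome, was at 469.8, 461 and 485 CPM in Ctrl, 577, 592 and 593 in PT-KO, 333, 295 and 341 in Ctrl+I/R and 1008, 699 and 836 in PT-KO+I/R. These are libraries 1, 2 and 3 for Ctrl, 1, 2 and 4 for PT-KO and Ctrl+I/R, and 2, 3 and 4 for PT-KO+I/R, an order kept below. All 3 PT-KO+I/R libraries were above all others, and the 3 Ctrl+I/R libraries were the lowest. Abcd3 rose against PT-KO (log2 fold change 0.52, SE 0.13, edgeR adjusted p = 0.00465). It also rose against Ctrl+I/R (1.38, SE 0.16, edgeR adjusted p = 0.000619; 95% interval 1.01 to 1.76).

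Ehhadh, the bifunctional enzyme that hydrates and dehydrogenates straight-chain enoyl-CoA, was at 811, 608 and 959 CPM in Ctrl, 1094, 1030.5 and 1013 in PT-KO, 491, 324 and 932 in Ctrl+I/R and 2848, 2658 and 2550.4 in PT-KO+I/R. The PT-KO+I/R libraries lay far above the other 9, without overlap. It was the largest rise in both comparisons (log2 fold change 1.35, SE 0.09, edgeR adjusted p = 1.3e-06 against PT-KO; 2.19, SE 0.36, edgeR adjusted p = 0.00224 against Ctrl+I/R, 95% interval 1.37 to 3.02). Within Ctrl+I/R, library 4 was far above the other two. The second bifunctional enzyme, Hsd17b4, which also serves branched chains, rose less (log2 fold change 0.49 and 0.59).

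Acaa1b, a thiolase that cleaves straight-chain 3-ketoacyl-CoA, was at 328, 362 and 203 CPM in Ctrl, 226, 183 and 267 in PT-KO, 146, 103 and 240.3 in Ctrl+I/R and 538, 500.5 and 523 in PT-KO+I/R. The PT-KO+I/R libraries were the highest of the 12 and close to each other. It rose by 1.20 on the log2 scale against PT-KO (SE 0.13, edgeR adjusted p = 2.8e-05) and by 1.66 against Ctrl+I/R (SE 0.28, edgeR adjusted p = 0.00262). Its near copy Acaa1a moved otherwise, with a fall against PT-KO (-0.80, SE 0.10, edgeR adjusted p = 6.9e-05) and -0.21 against Ctrl+I/R, which did not pass. Of the 100-base windows of the Acaa1b transcript, 22.6% also occur in Acaa1a, so their reads may be shared in part, and both are uncertain for this reason.

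Eci2, an isomerase that moves double bonds of unsaturated acyl-CoA, was at 91.6, 86.9 and 125 CPM in Ctrl, 115, 139.7 and 128 in PT-KO, 96.2, 80.8 and 111 in Ctrl+I/R and 199, 174 and 175 in PT-KO+I/R. The PT-KO+I/R libraries were again above all others. It rose in both comparisons (log2 fold change 0.51, SE 0.10, edgeR adjusted p = 0.00111; 0.92, SE 0.14, edgeR adjusted p = 0.00168). The other auxiliary enzymes did not share this: Decr2 had -0.10 against PT-KO and 0.50 against Ctrl+I/R, neither of which passed. Ech1 fell slightly against PT-KO (-0.29, SE 0.09, edgeR adjusted p = 0.0198), a call lost without PT-KO library 2 or PT-KO+I/R library 4 and with library totals or the fit to all 12 libraries, and had 0.06 against Ctrl+I/R.

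**Figure D2:**
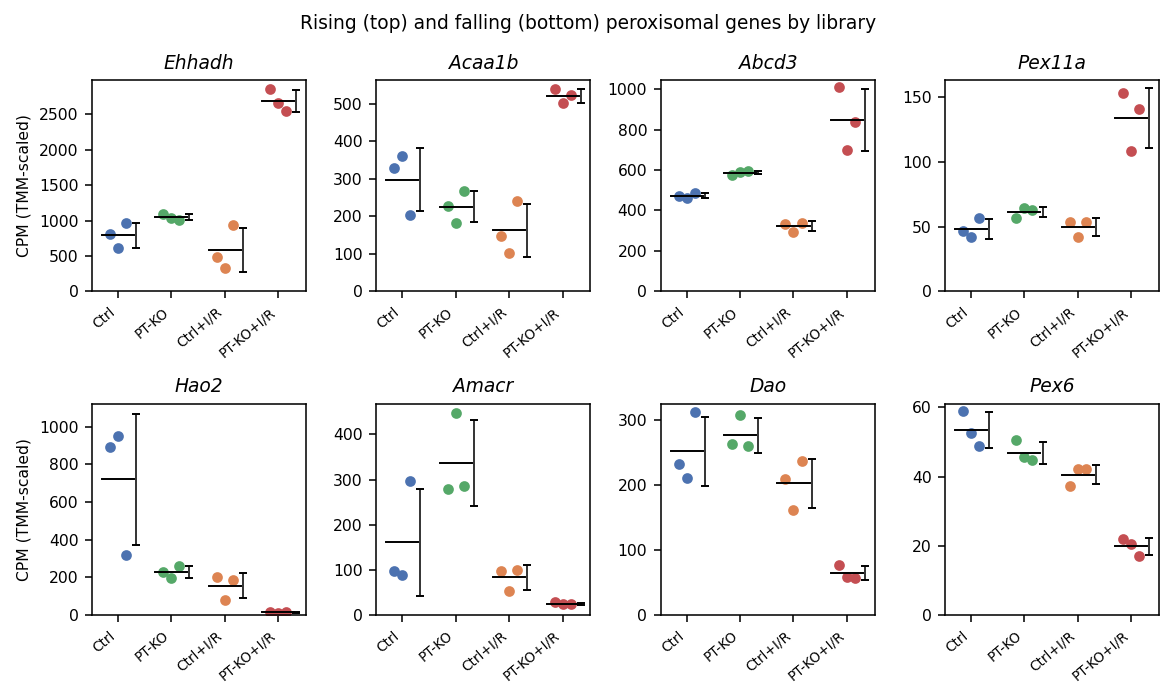
CPM (TMM-scaled, linear axis from 0) of 8 genes by group, with 1 point a library, the mean as a line and the SD as a bar (n = 3). Ehhadh, Acaa1b, Abcd3 and Pex11a (top) are highest, and Hao2, Amacr, Dao and Pex6 (bottom) lowest, in all 3 PT-KO+I/R libraries.

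Of the enzymes with a part in branched-chain or bile acid side-chain oxidation, Amacr, Acox2 and Scp2 fell in both comparisons, Acox3 fell against PT-KO and did not pass against Ctrl+I/R, and Hsd17b4 rose in both. Amacr, the racemase that prepares 2-methylacyl-CoA for oxidation, was at 96.4, 88.5 and 297 CPM in Ctrl, 278, 447 and 286 in PT-KO, 97.2, 51.9 and 100.1 in Ctrl+I/R and 27.6, 24.5 and 23.02 in PT-KO+I/R. The 3 PT-KO+I/R libraries were the lowest of all, whereas the uninjured libraries split into 2 low Ctrl libraries and 4 high ones. It fell by 3.76 on the log2 scale against PT-KO (SE 0.19, edgeR adjusted p = 1.6e-07) and by 1.74 against Ctrl+I/R (SE 0.25, edgeR adjusted p = 0.00129).

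Acox2, the oxidase of bile acid intermediates and branched chains, was at 140.1, 155 and 143 CPM in Ctrl, 123, 116 and 103 in PT-KO, 60.1, 36.1 and 115 in Ctrl+I/R and 34.1, 26.2 and 26.2 in PT-KO+I/R. Its PT-KO+I/R libraries were below all others, and its Ctrl+I/R libraries were spread over a wide range. Against PT-KO it fell clearly (-2.0, SE 0.12, edgeR adjusted p = 5.0e-07), and against Ctrl+I/R less surely (-1.30, SE 0.38, edgeR adjusted p = 0.0232). The latter call was lost without PT-KO+I/R library 3 or 4, with a value of -1.23 in either case. Without Ctrl+I/R library 4 the value shrank to -0.76 and still passed.

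Acox3, an oxidase of branched chains, was at 149, 156 and 382 CPM in Ctrl, 354, 515 and 409.8 in PT-KO, 169, 92.6 and 188 in Ctrl+I/R and 105, 92.95 and 89.2 in PT-KO+I/R. All PT-KO+I/R libraries were below all PT-KO libraries but overlapped those of Ctrl+I/R. It fell against PT-KO (-2.16, SE 0.14, edgeR adjusted p = 6.8e-07) and had -0.66 against Ctrl+I/R (edgeR adjusted p = 0.0562), which did not pass. An annotated gene on the opposite strand covers 700 exonic bases of Acox3. The counting is not stated to use strand, so Acox3 and that gene cannot be told apart there. Scp2, whose long form is the thiolase for branched chains, fell by 1.26 against PT-KO and by 0.49 against Ctrl+I/R, and the second call was lost without Ctrl+I/R library 1 or PT-KO+I/R library 3 or 4.

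The oxidases of hydroxy and amino acids were lower in injured PT-KO kidneys than in any other group. Hao2, which oxidizes long-chain 2-hydroxy acids, was at 892, 948 and 317 CPM in Ctrl, 230.1, 194 and 259.9 in PT-KO, 201, 77.7 and 185 in Ctrl+I/R and 16.3, 9.30 and 13.1 in PT-KO+I/R. The PT-KO+I/R libraries were far below all others, and the next lowest was Ctrl+I/R library 2. It had the largest fall of the 36 genes in both comparisons (log2 fold change -4.18, SE 0.20, edgeR adjusted p = 1.2e-07 against PT-KO; -3.61, SE 0.39, edgeR adjusted p = 0.000474 against Ctrl+I/R, 95% interval -4.51 to -2.71).

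Dao, the D-amino acid oxidase, was at 232, 211 and 312 CPM in Ctrl, 263, 307 and 259 in PT-KO, 209.5, 161 and 236 in Ctrl+I/R and 76.5, 58.9 and 57.00 in PT-KO+I/R. The PT-KO+I/R libraries lay far below the others and did not overlap any group. It fell in both comparisons (log2 fold change -2.12, SE 0.13, edgeR adjusted p = 4.7e-07; -1.67, SE 0.18, edgeR adjusted p = 0.000461). Pipox, which oxidizes pipecolic acid and sarcosine, also fell (-1.72 against PT-KO and -0.94 against Ctrl+I/R).

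Nudt19, a hydrolase of coenzyme A and its esters, was at 353, 271 and 759 CPM in Ctrl, 735, 1448 and 911 in PT-KO, 299, 216 and 394 in Ctrl+I/R and 333, 179 and 209.9 in PT-KO+I/R. Its fall against PT-KO was large (-2.11, SE 0.28, edgeR adjusted p = 8.9e-05), but the PT-KO+I/R libraries overlapped those of Ctrl+I/R (-0.34, edgeR adjusted p = 0.341). Calls of the same kind, with smaller falls and values above 0 against Ctrl+I/R, were found for Crot, which makes carnitine esters for export of shortened chains (-0.96 and 0.30), for Slc27a2 (-0.81 and 0.16) and for Phyh, the first enzyme of phytanic acid α-oxidation (-0.56 and 0.30), each of which fell against PT-KO and did not pass against Ctrl+I/R. The PT-KO+I/R libraries overlapped those of Ctrl+I/R for Crot and Slc27a2 and were above them for Phyh. An annotated gene on the opposite strand covers 938 exonic bases of Nudt19. The counting is not stated to use strand, so Nudt19 and that gene cannot be told apart there. Nudt7 (0.20 and 0.46) and Hacl1, the lyase of α-oxidation (-0.85 and -0.52), passed in neither comparison. Hacl1 was low, at 4.78, 6.42 and 1.496 CPM in Ctrl and 2.22, 1.20 and 1.03 in PT-KO+I/R, and shares exon sequence with another annotated gene on the same strand.

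Each of the 3 enzymes that start ether lipid (plasmalogen) synthesis fell in both comparisons. Agps, which forms the ether bond, was at 180.1, 168 and 370.0 CPM in Ctrl, 499, 802 and 521 in PT-KO, 163, 181 and 176 in Ctrl+I/R and 136, 122 and 135 in PT-KO+I/R. The PT-KO libraries were above all others and the PT-KO+I/R libraries below all others. It fell by 2.22 against PT-KO (SE 0.17, edgeR adjusted p = 2.4e-06) and by 0.41 against Ctrl+I/R (SE 0.10, edgeR adjusted p = 0.0111). The second call was lost without PT-KO+I/R library 3 and in the fit to all 12 libraries. Gnpat, which acylates dihydroxyacetone phosphate, fell by 0.67 and 0.40, and the second of these calls was lost without PT-KO+I/R library 4. Far1, which supplies the fatty alcohol, fell by 1.14 and 0.61.

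**Figure D3:**
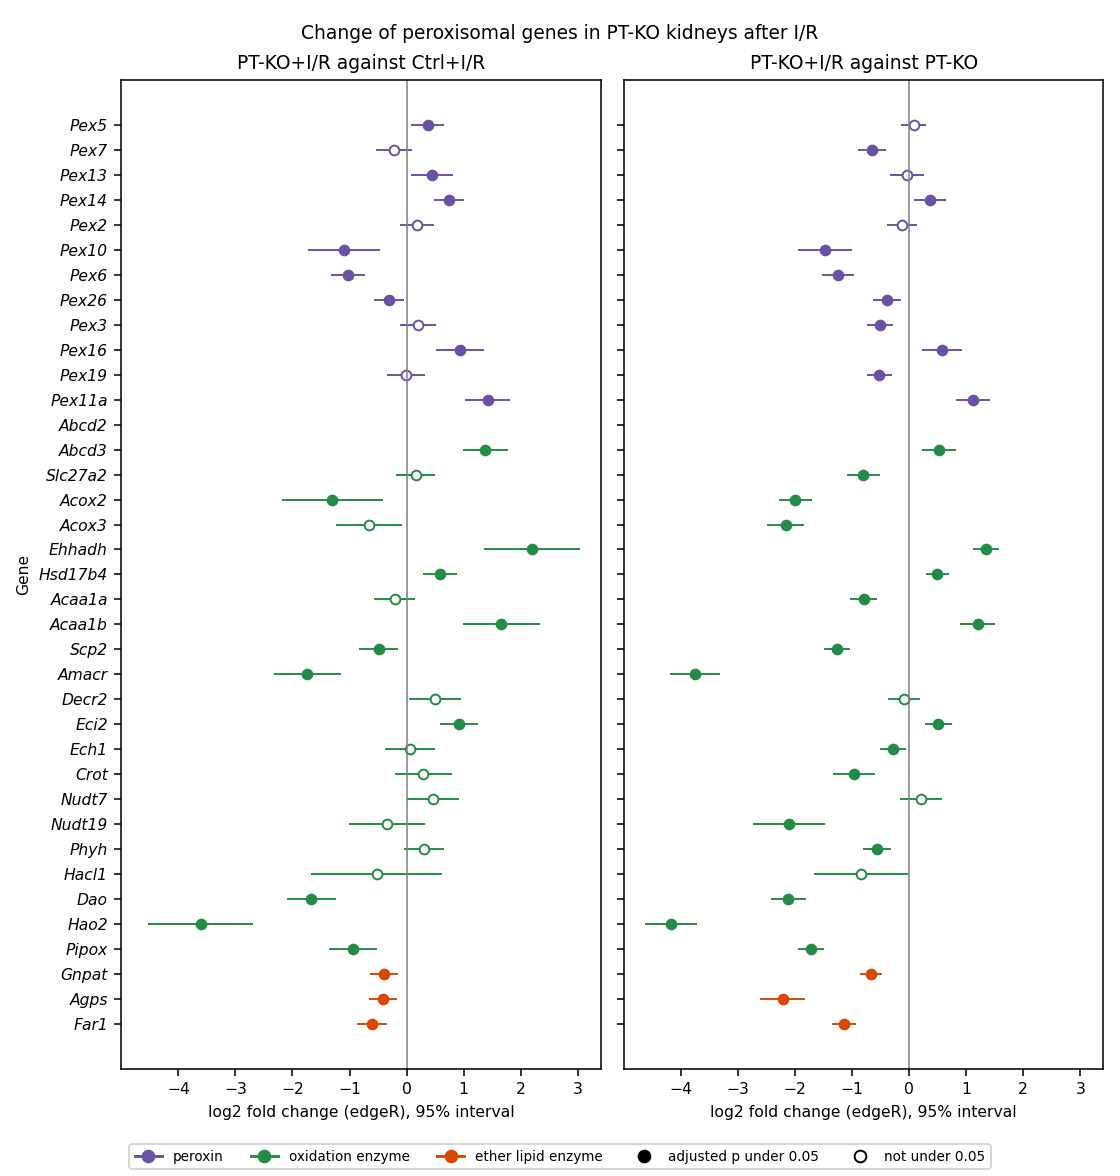
Log2 fold change of each gene with its 95% interval (edgeR), PT-KO+I/R versus Ctrl+I/R on the left and against PT-KO on the right; filled points had an adjusted p under 0.05. Peroxins lie between -1.48 and 1.12 against PT-KO and oxidation genes between -4.18 and 1.35, while the 3 ether lipid genes lie under 0 in both panels.

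The median size of the change was smaller for peroxins than for oxidation genes, a difference that was not tested. Against PT-KO the median absolute log2 fold change was 0.52 for the 12 peroxins, 0.96 for the 21 oxidation genes tested and 0.63 for all genes. Against Ctrl+I/R it was 0.41, 0.59 and 0.48. Of the peroxins, 9 passed against PT-KO (3 higher, 6 lower) and 8 against Ctrl+I/R (5 higher, 3 lower), and of the oxidation genes 18 (5 higher, 13 lower) and 11 (5 higher, 6 lower), beside the 65.5% and 46.9% of all genes. With library totals the peroxins called against Ctrl+I/R were 3 higher and 4 lower and the oxidation genes 5 higher and 8 lower. The peroxin count against Ctrl+I/R was 5 without Ctrl+I/R library 1, 5 without library 2 of PT-KO+I/R and 4 without its library 4. The summed level of the peroxins was 649, 715 and 654 CPM in PT-KO and 723, 586 and 637 in PT-KO+I/R, which overlap. That of the ether lipid genes was 971, 1309 and 999 against 365, 365 and 383, and that of the oxidation genes 10750, 13510 and 11730 against 10040, 8968 and 8771, neither of which overlap.

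Among peroxins the largest rise was that of Pex11a, which elongates and divides peroxisomes. It was at 46.3, 41.97 and 56.8 CPM in Ctrl, 56.6, 64.1 and 62.6 in PT-KO, 53.4, 41.8 and 53.7 in Ctrl+I/R and 153, 108 and 141 in PT-KO+I/R. The 3 PT-KO+I/R libraries lay well above the other 9. It rose by 1.12 against PT-KO (SE 0.13, edgeR adjusted p = 3.1e-05) and by 1.42 against Ctrl+I/R (SE 0.16, edgeR adjusted p = 0.000594; 95% interval 1.05 to 1.80).

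The largest falls were in the machinery that recycles receptors. Pex6 was at 59.01, 52.7 and 48.8 CPM in Ctrl, 50.6, 45.6 and 44.7 in PT-KO, 37.3, 42.1 and 42.1 in Ctrl+I/R and 21.99, 20.5 and 17.2 in PT-KO+I/R. Pex10 was at 11.9, 13.5 and 14.7 CPM in Ctrl, 13.1, 17.4 and 12.6 in PT-KO, 9.29, 8.83 and 15.1 in Ctrl+I/R and 4.62, 6.45 and 4.32 in PT-KO+I/R. For both, the PT-KO+I/R libraries lay below every other library. Pex6 fell in both comparisons (log2 fold change -1.25, SE 0.11, edgeR adjusted p = 7.7e-06; -1.03, SE 0.12, edgeR adjusted p = 0.000654), as did Pex10 (log2 fold change -1.48, SE 0.20, edgeR adjusted p = 0.000122; -1.10, SE 0.27, edgeR adjusted p = 0.0119), although the Pex10 call against Ctrl+I/R was lost without PT-KO+I/R library 4. The partners of these proteins moved less. Pex26, the anchor of Pex6, was at 27.5, 27.1 and 24.6 CPM in Ctrl, 27.2, 28.1 and 25.1 in PT-KO, 24.1, 25.3 and 26.8 in Ctrl+I/R and 21.3, 19.6 and 20.8 in PT-KO+I/R. It fell by 0.39 and 0.31, and the call against Ctrl+I/R was lost whichever of the 6 libraries was left out, and with DESeq2 or no low-count filter. Pex2, the ring finger partner of Pex10, had -0.13 and 0.18 and passed in neither.

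Pex14, a docking protein, was at 32.3, 28.9 and 37.4 CPM in Ctrl, 38.9, 46.8 and 34.2 in PT-KO, 29.97, 28.98 and 33.4 in Ctrl+I/R and 54.4, 47.7 and 52.6 in PT-KO+I/R, and its PT-KO+I/R libraries were the highest. It rose by 0.36 against PT-KO, a call lost without PT-KO library 1 or 4 or PT-KO+I/R library 4, and by 0.74 against Ctrl+I/R (SE 0.11, edgeR adjusted p = 0.00140). An annotated antisense gene covers 1776 exonic bases of Pex14, and the counting is not stated to use strand, so the 2 genes cannot be told apart. Pex13 was at 44.03, 47.7 and 49.2 CPM in Ctrl, 50.1, 51.8 and 53.4 in PT-KO, 39.7, 34.1 and 37.3 in Ctrl+I/R and 61.95, 42.1 and 48.6 in PT-KO+I/R. It had -0.04 against PT-KO and 0.45 against Ctrl+I/R (edgeR adjusted p = 0.0419), and the latter call was lost when any library but PT-KO+I/R library 3 was left out, with library totals and with at least 10 counts in every library required.

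The main import receptor, Pex5, was at 78.3, 81.01 and 87.01 CPM in Ctrl, 80.3, 94.2 and 81.9 in PT-KO, 71.3, 59.8 and 77.2 in Ctrl+I/R and 89.9, 88.2 and 93.4 in PT-KO+I/R. It had 0.08 against PT-KO and rose by 0.37 against Ctrl+I/R, a call lost without Ctrl+I/R library 1 or any PT-KO+I/R library, and with library totals. The second receptor, Pex7, imports Agps, Phyh and the thiolases Acaa1a and Acaa1b. It was at 63.9, 65.7 and 80.2 CPM in Ctrl, 70.2, 76.4 and 75.96 in PT-KO, 59.7, 48.6 and 56.7 in Ctrl+I/R and 54.1, 42.9 and 45.4 in PT-KO+I/R. Its PT-KO+I/R libraries were under all PT-KO libraries but overlapped Ctrl+I/R. It fell against PT-KO (-0.66, SE 0.10, edgeR adjusted p = 0.000250) and had -0.22 against Ctrl+I/R. The difference between the receptors was not tested.

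Of the 3 genes for insertion of membrane proteins, Pex16 was at 29.1, 25.03 and 27.05 CPM in Ctrl, 28.5, 33.1 and 26.9 in PT-KO, 21.7, 20.99 and 26.2 in Ctrl+I/R and 56.05, 39.1 and 38.04 in PT-KO+I/R. Its PT-KO+I/R libraries were the highest, and it rose in both comparisons (log2 fold change 0.58, SE 0.15, edgeR adjusted p = 0.00731; 0.94, SE 0.17, edgeR adjusted p = 0.00373). Pex3 was at 33.5, 32.7 and 39.1 CPM in Ctrl, 43.7, 48.6 and 47.5 in PT-KO, 28.4, 24.7 and 32.3 in Ctrl+I/R and 34.7, 30.3 and 33.98 in PT-KO+I/R, and Pex19 at 119.5, 114 and 134 CPM in Ctrl, 131, 139 and 126 in PT-KO, 91.1, 79.1 and 107 in Ctrl+I/R and 102, 87.8 and 86.6 in PT-KO+I/R. Both were lowered by I/R within PT-KO (-0.51 for Pex3 and -0.53 for Pex19, with edgeR adjusted p of 0.000869 and 0.000516) to levels that overlapped Ctrl+I/R (0.20 and -0.01, neither of which passed).

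In control kidneys 4 of the 36 genes passed after I/R, all lower (19.4% of all 15567 genes passed, 7.97% lower and 11.4% higher). These were Pex6 (-0.40), Abcd3 (-0.54), Acaa1a (-0.66) and Hao2 (-2.20), with edgeR adjusted p from 0.0236 to 0.0410. The median log2 fold change was -0.34 over the 36 genes, -0.25 over peroxins and -0.57 over oxidation genes, beside -0.01 over all genes tested. For 34 of the 36 the value was under 0, and the exceptions were Hsd17b4 (0.03) and Pex11a (0.04), neither of which passed.

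These calls depended on single libraries, as did those over all genes (3019 of 15567 with all 6). Without Ctrl library 1 or 2 the count was 0, with 379 and 413 of all genes called. Dropping Ctrl+I/R library 1 gave 1 member and 833 genes, dropping library 2 of that group gave 2 and 1635, and dropping its library 4 gave 11 and 4061. Another fit took all groups without the 2 Xist-carrying Ctrl libraries, so that Ctrl library 3 alone stood for Ctrl and was assumed to vary like the other groups. In it 1219 of 17616 genes passed, the 4 calls were lost and 6 other members passed, all lower. Of the 4, Abcd3 (-0.61) and Acaa1a (-0.69) kept values at least as far from 0 as before, whereas Pex6 (-0.29) and Hao2 (-1.05) came nearer to 0. The fit to all 12 libraries, which keeps those 4 calls, called 4938 of 16168 genes and 11 members, Slc27a2 and Scp2 of the 6 among them, so both the form of the fit and the libraries left out bear on this count. The 6 were Amacr (-1.86), Acox3 (-1.37), Agps (-1.11), Slc27a2 (-0.86), Scp2 (-0.83) and Far1 (-0.56). Within Ctrl+I/R, library 2 was the lowest for 31 of the 37 genes and library 4 the highest for 28. The injured tubule markers summed to 1109, 2669 and 571 CPM in libraries 1, 2 and 4, and the proximal tubule markers to 7467, 4458 and 9962. The part of this in the spread was not tested.

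Without I/R, 0 of the 36 genes passed between PT-KO and Ctrl by edgeR, as did 0 (0%) of all 15291 genes. At an unadjusted p under 0.05 there were 14 of the 36 and 2573 of all genes, and DESeq2 called 3 of the 36 and 458 of all genes. The groups did not overlap for 9 of the 36 (20.9% of all genes tested). Of these, 7 were higher and 2 lower in PT-KO. Hao2 had -1.66 (95% interval -2.51 to -0.81) and Acox2 had -0.36 (95% interval -0.57 to -0.14). Among the higher, Abcd3 had 0.31 (95% interval 0.12 to 0.50), Pex3 had 0.41 (95% interval 0.19 to 0.63), Ehhadh had 0.40 (95% interval 0.03 to 0.77) and Agps had 1.34 (95% interval 0.60 to 2.08), and the others were Crot (1.14), Gnpat (0.19) and Pex13 (0.14). Without Ctrl library 3, so that only Xist-carrying kidneys stood for Ctrl, 19 of the members and 1930 of all 15597 genes passed. In the fit to all groups without the Xist-carrying libraries, with the lone Ctrl library 3 assumed to vary like the other groups, 0 members and 0 of 17616 genes passed. The values there were nearer to 0 for Hao2 (-0.49), Agps (0.70), Crot (0.35), Ehhadh (0.11), Pex3 (0.24), Gnpat (0.13) and Pex13 (0.06), and moved less for Abcd3 (0.26) and Acox2 (-0.34).

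Several oxidation genes divided the Ctrl group itself. Ctrl library 3 was over 1.5 times the mean of Ctrl libraries 1 and 2 for Amacr (3.21 times), Crot (2.70), Acox3 (2.51), Nudt19 (2.43), Agps (2.13) and Phyh (1.53). It was lower by as much for Hacl1 (0.267 times), Hao2 (0.344), Abcd2 (0.359) and Acaa1b (0.590), and the other 27 genes lay between. All 12 peroxins were among those 27. With 1 library on a side no test was made of this, and sex and any other difference of that library cannot be told apart. The 5 hepatocyte markers, summed, were at 188 to 1617 CPM in Ctrl and 1247 to 2407 in PT-KO, and most of this was Cyp2e1, a cytochrome P450, at 119 to 1454 and 1116 to 2162. Of the others, Ttr was at 61.4 to 159.7 and 114 to 226 CPM, Alb at 3.16 to 5.81 and 2.97 to 6.81, Serpina1a at 0.333 to 5.02 and 10.9 to 13.1, and Apoa1 at 0 to 0.551 and 0.694 to 0.754. Their part in the values above was not tested.

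**Figure D4:**
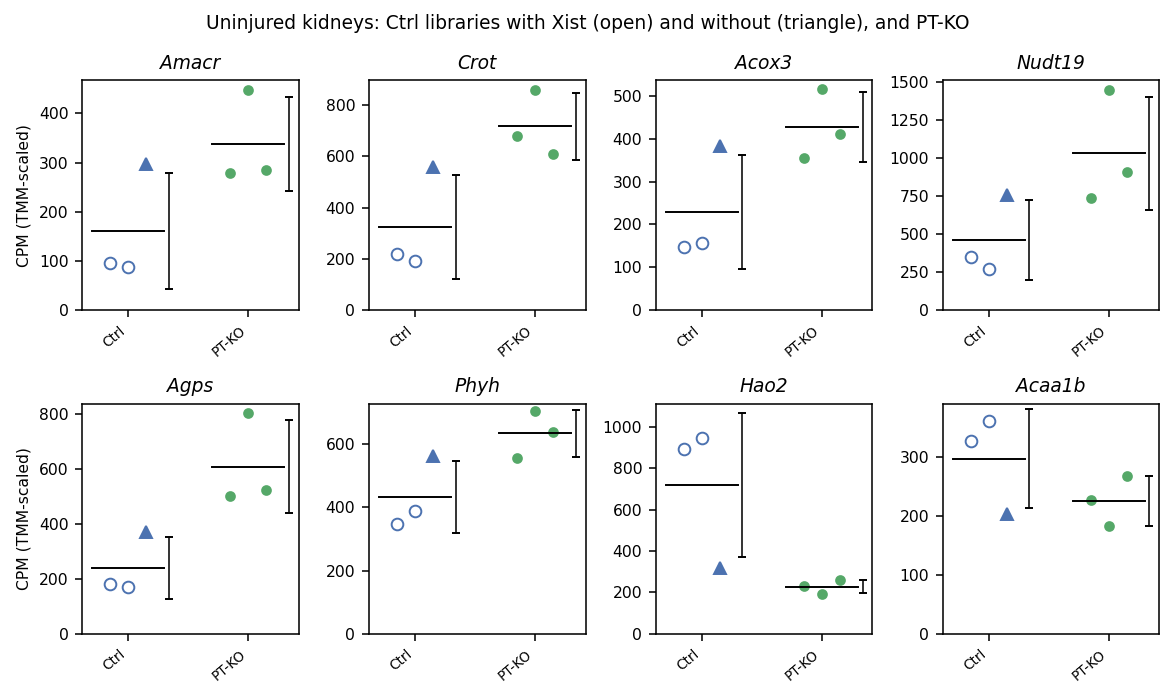
CPM (TMM-scaled, linear axis from 0) of 8 genes in uninjured kidneys, with 1 point a library, the mean as a line and the SD as a bar (n = 3). Open circles are Ctrl libraries 1 and 2, which carry Xist, and the triangle is Ctrl library 3, which is nearer to the PT-KO libraries (filled circles) for Amacr, Crot, Acox3 and Hao2.

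The response to I/R differed between the genotypes for 17 of 37 genes by the interaction term of edgeR over all 12 libraries (30.6% of 16168 genes, 14.3% higher and 16.4% lower). It was positive for 6 and negative for 11. By class, 4 of 12 peroxins, 10 of 22 oxidation genes and all 3 ether lipid genes passed. The oxidation count was 6 without Ctrl+I/R library 1, PT-KO+I/R library 3 or PT-KO+I/R library 4. Without the 2 Xist-carrying Ctrl libraries, with library 3 alone in Ctrl, 12 genes passed, of which 11 were among the 17, while the count over all genes also fell, from 4953 of 16168 to 2539 of 17616.

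Of 37 further peroxisomal genes, 24 of the 35 tested passed in PT-KO+I/R against PT-KO (5 higher, 19 lower), 19 of 35 against Ctrl+I/R (8 higher, 11 lower), 7 of 33 in Ctrl+I/R against Ctrl (all lower) and 0 of 33 in PT-KO against Ctrl. These shares, in both directions together, of 68.6%, 54.3%, 21.2% and 0% were near those of all genes, 65.5%, 46.9%, 19.4% and 0%. In the first 3 comparisons 32.7%, 24.4% and 7.97% of all genes were lower and 32.9%, 22.5% and 11.4% higher. The further genes thus leaned to lower calls, which was not tested. The largest rises against Ctrl+I/R were at very low counts. The acyl-CoA thioesterase Acot5 was at 0.0447, 0.157 and 0 CPM in Ctrl+I/R and 3.42, 2.63 and 1.81 in PT-KO+I/R, and urate oxidase (Uox) at 0.134, 0.470 and 0.126 and 1.03, 0.757 and 0.903. The largest falls were those of the acyltransferases Acnat1 (-4.07), which has a near copy in Acnat2, and Baat (-2.24), which conjugates bile acids.

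Of 8 regulators of these genes, 4 (50%) passed against Ctrl+I/R, near the 46.9% of all genes. Ppara, which encodes PPARα, was at 96.2, 81.3 and 79.2 CPM in Ctrl, 93.5, 102 and 111 in PT-KO, 43.6, 33.4 and 66.3 in Ctrl+I/R and 104, 91.4 and 127 in PT-KO+I/R. After I/R it fell in control kidneys (-0.83, SE 0.24, edgeR adjusted p = 0.0481). That comparison mixes the sexes, and its calls over all genes depended on single libraries. In PT-KO+I/R, Ppara had 0.07 against PT-KO and exceeded Ctrl+I/R (1.17, SE 0.25, edgeR adjusted p = 0.00675). Its partner Rxra was higher by 0.70 and passed. The coactivator gene Ppargc1a (-0.84) and the orphan receptor gene Esrra (-1.31) fell. Hnf4a (-0.40), Ppard (0.35), Ppargc1b (0.20) and Pparg (-0.55) did not pass. Against PT-KO, Rxra rose (0.32) and Hnf4a (-0.98), Ppargc1a (-1.58), Ppargc1b (-0.71) and Esrra (-1.93) fell, while Ppard (0.26) and Pparg (-0.31) did not pass.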

How the data were processed

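RNA was measured in 12 mouse kidney libraries, 3 in each of 4 groups. The authors deposited a table of raw read counts per gene, not normalized and with no filter, for 55487 Ensembl identifiers, of which 55227 had a symbol in GENCODE M21. The submitters' processing notes name HISAT2 2.0.4 and mm10. The counting program, annotation and strand setting are not given in the sources used here. The labels name both TRIzol and a column kit for extraction, and the study's methods an Illumina sequencer. Groups were taken from the labels. The column of Ctrl library 3 carries a number that no control title has (titles 1, 2 and 4), so it was placed in Ctrl by its name and formed a block of its own.

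The members and lists were chosen with earlier results of these data known. Genes were filtered with filterByExpr, scaled by TMM and compared by the quasi-likelihood F statistic (edgeR 4.0.16, R 4.3.3), with only the 6 libraries of a comparison in each fit, or on all 12 for the interaction, and passed at a Benjamini-Hochberg adjusted p under 0.05 over all genes tested. SE was taken from the F statistic and intervals are 95%. The scripts were tested on simulated data. Nothing in the labels says that libraries came from separate animals, so p-values measure the spread between these samples. Values in every library are given for the 6 largest rises and 6 largest falls in either comparison of PT-KO+I/R and for every peroxin that passed anywhere. Alternatives were DESeq2 1.42.0, library totals or DESeq2 size factors in place of TMM, genes unfiltered, genes with 10 or more counts in every library, a replicate block, 1 fit to all 12 libraries, leaving out each library, and a fit to all groups without the Ctrl libraries with Xist, in which the lone Ctrl library is assumed to vary like the other groups. Same-numbered libraries of different groups did not deviate together (residual correlation over 12 pairs, median -0.022, from -0.188 to 0.184), and numbers were not taken as pairs. Lengths are those of the longest principal transcript. Annotated exons of 15 of the 37 genes overlap those of another gene.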

Additional observations from a re-analysis of the deposited data

Results flagged for a closer look

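The response to I/R differed between PT-KO and Ctrl by the test of the difference itself (the interaction term of edgeR, adjusted p under 0.05) for 17 genes, given as the log2 fold change by I/R in PT-KO minus that in Ctrl. Among oxidation genes it was positive for Acaa1b (2.07), Ehhadh (1.81), Abcd3 (1.08) and Hsd17b4 (0.47), and negative for Amacr (-2.80), Hao2 (-1.94), Dao (-1.79), Acox3 (-1.54), Pipox (-1.31) and Scp2 (-0.65). Among peroxins it was positive for Pex11a (1.10) and Pex16 (0.82) and negative for Pex10 (-1.19) and Pex6 (-0.84). All 3 ether lipid genes had a negative term, with Agps (-1.75), Far1 (-0.91) and Gnpat (-0.59). For Amacr (SE 0.59) the term ran from -3.60 to -2.505 when 1 library was left out, and its Ctrl libraries 1 and 2 were at 92.5 CPM on average and Ctrl library 3 at 297.

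Ctrl mixes the sexes and the other 3 groups do not, so sex and the Ctrl arm of the interaction cannot be told apart. Without the 2 Xist-carrying Ctrl libraries the Ctrl arm is the single library 3, which was assumed to vary like the other groups, so these calls rest on that assumption. The term then passed for Hao2 (-3.13), Ehhadh (2.07), Amacr (-1.92), Acaa1b (1.52), Dao (-1.49), Pex11a (1.32), Agps (-1.13), Abcd3 (1.11), Pipox (-0.99), Pex6 (-0.98) and Far1 (-0.59), of which Hao2 moved away from 0 and Far1 and Agps toward 0 by over 1.5 times on the log2 scale, and it also passed for Eci2 (0.89). It did not for Pex10 (-1.06), Pex16 (0.82), Acox3 (-0.81), Hsd17b4 (0.55), Scp2 (-0.45) and Gnpat (-0.54). Leaving out 1 of the 12 libraries at a time lost the call of Acox3 in 8 fits, of Hsd17b4 in 8, of Scp2 in 6 and of Hao2 in 5.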

How the results depend on the processing

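No member that passed in the reported fit or under an alternative changed its direction between them. In PT-KO+I/R versus Ctrl+I/R, with the replicate block, 8 members, 2 peroxins and 6 oxidation genes passed, against 22, 8 and 11 without it. The replicate numbers do not pair the libraries, and over all genes the block called 1683 of 15281 there. In Ctrl+I/R against Ctrl (4 members, 1 peroxin and 3 oxidation genes), DESeq2 called 9 members and 8 oxidation genes, no low-count filter 7, 0 peroxins and 7, the fit to all 12 libraries 11, 3 and 8, library totals 0 peroxins, the replicate block 0 peroxins and 6 oxidation genes, and leaving out the Ctrl libraries with Xist 0 peroxins. In PT-KO against Ctrl (0 of each), DESeq2 called 3 members, 1 peroxin and 2 oxidation genes, no low-count filter 3 members and 2 oxidation genes, and the replicate block 13, 1 and 10. For the interaction, 2 peroxins passed without the Ctrl libraries with Xist. Ctrl library 3 had a block of its own. In fits with the replicate block, Ctrl was thus set by libraries 1 and 2, which carry Xist. In PT-KO against Ctrl these were set against PT-KO libraries 1 and 2, so genotype and sex cannot be told apart there. The cause of the differences listed was not tested.

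Leaving out 1 library gave 0 to 11 members, 0 to 3 peroxins and 0 to 8 oxidation genes in Ctrl+I/R against Ctrl, 28 to 31, 8 to 9 and 17 to 19 in PT-KO+I/R against PT-KO, 15 to 22, 4 to 6 and 9 to 13 in PT-KO+I/R versus Ctrl+I/R, 0 to 19, 0 to 3 and 0 to 14 in PT-KO against Ctrl, and 13 to 18, 4 to 5 and 6 to 11 for the interaction. The genes that passed against Ctrl+I/R under every alternative were Pex6, Pex11a, Abcd3, Ehhadh, Acaa1b, Amacr, Dao and Hao2. Depth limits Abcd2, with as few as 2 counts in a library.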
